A study of Mus musculus with 2 samples.

Results

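Basal myoepithelial cells of the adult mouse mammary gland were described from single cell RNA sequencing of 2 libraries. The cells were selected on measured values: those in which Krt5, Krt14 and Krt17 together took at least 0.3% of the UMIs (unique molecular identifiers, each counting 1 captured transcript), in which Acta2, Myh11 and Tagln together took at least 0.1%, in which the basal keratins outnumbered the luminal keratins Krt8, Krt18 and Krt19, and in which no UMI of Ptprc, the leukocyte antigen CD45, was seen. This gave 770 cells of the 15632 that passed the filters, of which 381 (of 6297) came from the Ctrl library and 389 (of 9335) from the CL library. The glands came from wild-type adult female mice, 9 to 10 weeks old by the sample labels and 8 to 10 weeks old by the protocol, either control or treated by repeated intraperitoneal injection of clodronate liposomes (CL), a reagent that macrophages ingest and that kills them from within. Both suspensions were sorted to hold CD45-positive immune cells and cells without CD31 and TER119, which mark endothelial and red blood cells, and by the methods of the study sorted cells had been stored before they were loaded. With 1 library per group no test between treatments was possible, so all intervals below are 95% intervals that cover counting error only. How many mice entered a library was not given in the sources used here.

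Basal cells form the outer layer of the mammary duct, between the luminal cells and the basement membrane. They carry the keratins of stratified epithelia together with the contractile apparatus of smooth muscle, and contract in response to oxytocin to eject milk. The layer also lays down much of the basement membrane, signals to luminal cells and to the stroma through Wnt ligands, Notch ligands and growth factors, and holds the cells that regenerate a gland after transplantation. Interferon gamma, which T cells and natural killer cells release, switches on guanylate binding proteins, immunity-related GTPases and the genes of antigen presentation in most cell types, epithelial cells among them.

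The label was checked against markers outside the selection, with Acta2 given as a description since it chose the cells. Acta2, smooth muscle actin, stood at 7246 CPM (UMIs of the gene scaled to a fixed total, here all UMIs of the basal cells of the library) in Ctrl and at 8420 CPM in CL, against 57.5 and 52.0 CPM in luminal cells of the same libraries. Of the other markers, Trp63, the transcription factor p63 that maintains basal epithelia, stood at 81.7 and 51.5 CPM against 0.591 and 0.336 CPM in luminal cells. Oxtr, the oxytocin receptor, stood at 108 and 93.9 CPM against 1.24 and 1.34 CPM. Genes with at least 100 basal UMIs that were not in the selection were ranked by the ratio of basal over luminal CPM. The 10 highest were Kcnq5, Wnt10a, Uts2b, Adamts18, Tenm2, Actg2, Snai2, Il17b, Sdk1 and Cxcl14, with log2 ratios from 7.47 to 8.15. Actg2 is a smooth muscle actin and Snai2 is a transcription factor of the basal layer, while Wnt10a is a secreted Wnt ligand. Mural cells of blood vessels share the contractile genes, and of their 8 markers Higd1b, Kcnj8, Abcc9 and Ndufa4l2 were at 0 UMIs in the basal cells of both libraries. The 8 markers summed to 22 UMIs in Ctrl and 29 in CL. The 6 endothelial markers summed to 16 and 11 UMIs, and the 12 immune markers to 27 and 45 UMIs, so that none of these 26 markers reached 50 UMIs over both libraries. The 4 Schwann cell markers summed to 62 and 46 UMIs, of which Mbp had 56 and 45.

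Macrophage transcripts were not lower in the library labelled CL when summed. Over all cells past the filters the sum of 7 markers of macrophages came to 38.3 CPM in Ctrl against 169 CPM in CL, a log2 ratio of 2.14 [2.09, 2.19]. Lyz2, which neutrophils and monocytes express too, stood at 12.3 and 135 CPM, while Adgre1, which encodes F4/80, stood at 1.41 and 2.77 CPM. Csf1r and C1qa were higher in CL too, with log2 ratios of 0.69 [0.48, 0.90] and 0.48 [0.38, 0.57]. Pf4 was lower, at -0.71 [-0.98, -0.44], and the intervals of Mrc1 (-0.43 [-0.90, 0.03]) and Ms4a7 (0.18 [-0.02, 0.38]) span 0. Without Lyz2 the sum of the other 6 was at 26.0 and 34.1 CPM (log2 ratio 0.39 [0.32, 0.46]), so most of the gap came from Lyz2. Of these 7 markers, Pf4 alone was lower by more than counting error in the library labelled as treated. The paper reports lower proportions of both macrophages and basal cells in the CL sample of its single cell data. With the labels as given, basal cells made up 6.05% of the cells in Ctrl and 4.17% in CL, while the summed macrophage markers were higher in CL. Whether the labels are right was not tested, and an exchange of them would turn the direction of every ratio. Ctrl and CL therefore stand throughout for the libraries labelled so. The libraries held 118743318 and 155765480 UMIs. The basal cells held 3649164 and 2641157 UMIs, and a cell had 8269 UMIs from 2547 genes at the median in Ctrl, and 5924 UMIs from 1991 genes in CL. Of the cell barcodes, 18 stood on the lists of both libraries, and 1 basal cell of CL had a barcode that was also among the cells of Ctrl.

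Basal cells made up 6.05% [5.47, 6.67] of the cells in Ctrl and 4.17% [3.77, 4.59] in CL. The log2 ratio of these shares was -0.54 [-0.74, -0.34]. Among cells with keratin, basal and luminal together, the share was 6.85% [6.20, 7.54] in Ctrl and 5.10% [4.62, 5.62] in CL. Both denominators gave a lower share in CL by more than counting error. The part of the sort in these shares was not tested, and mice and libraries cannot be told apart from the treatment. Just inside the keratin threshold, 14 Ctrl cells and 23 CL cells had 0.3 to 0.4% of their UMIs from Krt5, Krt14 and Krt17, and just outside it 6 and 9 cells that met the other conditions had 0.2 to 0.3%. Just inside the contractile threshold, 15 and 25 cells had 0.1 to 0.2%, and just outside it 2 and 10 cells had 0.05 to 0.1%.

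The keratins and contractile genes that chose the cells are given as a description. The 3 keratins took a median of 1.04% of a cell's UMIs in Ctrl and 0.986% in CL, with the middle 80% of cells between 0.534 and 1.85% and between 0.491 and 1.82%. Krt5 stood at 1030 CPM in Ctrl and 1055 in CL, Krt14 at 4839 and 5301, and Krt17 at 5401 and 4560. Cells differed more widely in the contractile genes of the selection, with a median of 1.04% and a middle 80% of 0.323 to 2.33% in Ctrl, and a median of 1.16% and a middle 80% of 0.262 to 2.77% in CL. For both groups of genes the spread from cell to cell within a library was wider than the shift between the medians of the libraries.

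**Figure D1:**
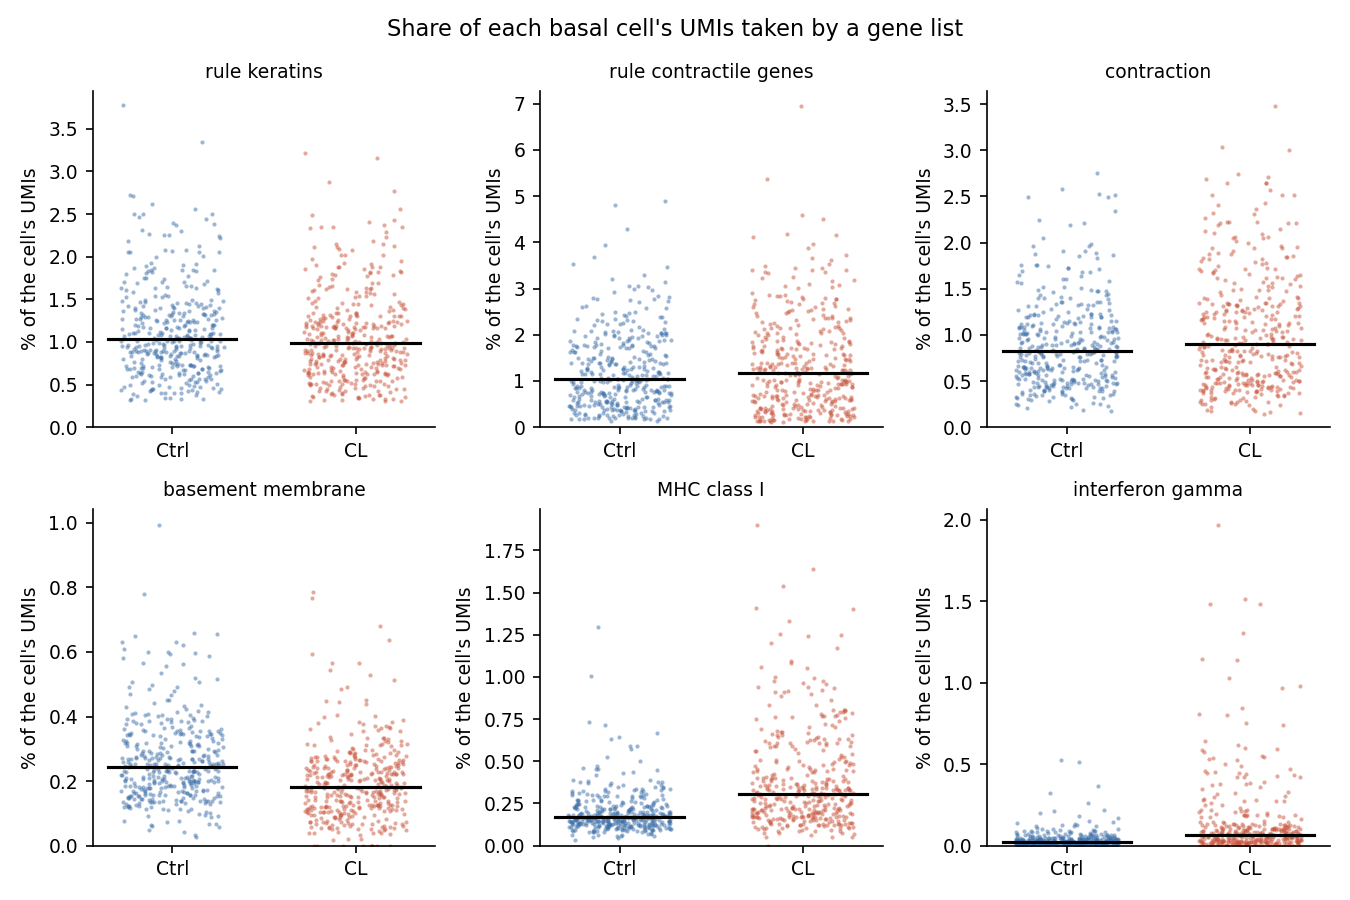
Percent of each basal cell's UMIs (vertical axes) that came from 6 gene lists, with 1 point per cell, 381 cells in Ctrl and 389 in CL, and a black line at the median. The medians of the keratin lists lie together (1.04 and 0.986%), while the interferon gamma list reaches 1.97% of a cell's UMIs in CL and 0.528% in Ctrl.

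Over the transcriptome of the basal cells, 8165 genes had at least 50 UMIs over both libraries and were compared. Of these, 73 genes (0.894%) were at least 2-fold higher in CL and 108 genes (1.32%) were at least 2-fold lower, and the median log2 ratio was -0.09. Of the 73 genes, 30 (41.1%) were members of the lists for interferon gamma, type I interferon, MHC class I and MHC class II, which had 37 members among the 8165 genes counted. The lists were chosen with earlier results of these data known. Counts of their members past 2-fold, here and below, are therefore a description. All lists together had 235 members counted, and the 19 of them among the 108 lower genes came from 6 lists, with 8 from cell division, 4 from the fibroblast markers and 4 from the 2 matrix lists. By a fixed ranking that needed 100 UMIs and a level above that of empty droplets, the 10 highest included Iigp1, Cxcl10, Gbp2, Ifi47, Cd74, Isg15, Igtp, Gbp7 and Parp14, with log2 ratios from 2.18 to 4.21. The 10 lowest were Cenpa, Prc1, Top2a, Krt15, Robo1, Sostdc1, Impdh1, H1fx, Col11a1 and Col5a1, with log2 ratios from -2.59 to -1.16. Some ranked genes were above empty droplets only in the library where they were higher. In Ctrl, Iigp1 was at 6.03 CPM against 32.5 in empty droplets, and Cd74 at 43.3 against 111. In CL, Cenpa was at 6.06 against 16.3 and Impdh1 at 9.09 against 22.2. For such genes the filter depended on the ratio itself, and the rankings are a description.

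**Figure D2:**
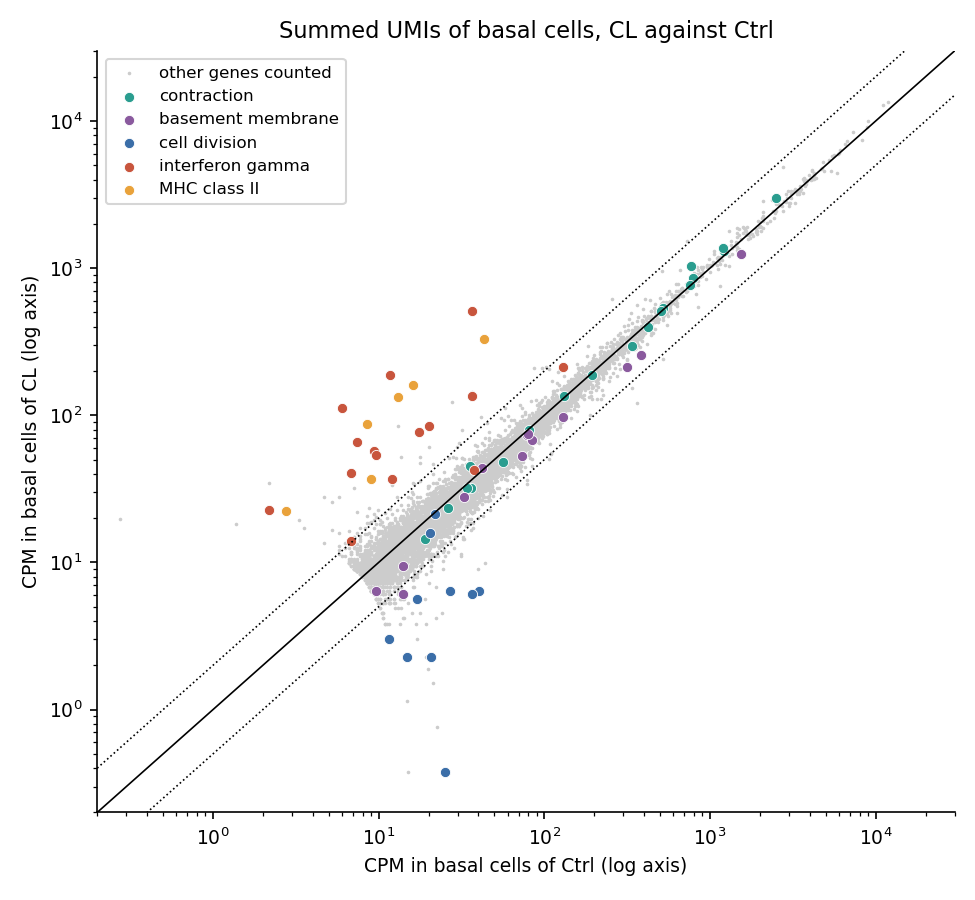
CPM of each of the 8165 genes counted in basal cells of Ctrl (horizontal) and CL (vertical), both on log axes, with the line of equality and dotted lines at 2-fold. The contraction list lies along the line, the interferon gamma and MHC class II members lie above it, and 8 of 10 cell division members lie more than 2-fold below it.

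Among the cells selected, the contractile apparatus differed little between the libraries. The 21 genes of the contraction list, which leaves out the 3 used for selection, summed to 9654 CPM in Ctrl against 10650 CPM in CL. This was a log2 ratio of 0.14 [0.12, 0.16]. Across cells the list followed the 3 genes used for selection, with a Spearman rho of 0.88 in Ctrl and 0.87 in CL. The contractile threshold alone left out 8 Ctrl cells and 26 CL cells. The level of the list is thus not independent of the selection, whose part in the ratio was not tested. None of the 19 members counted was past 2-fold in either direction, against 0.894% and 1.32% of all genes, and their median log2 ratio was 0.01. Myl9, the regulatory light chain of smooth muscle myosin, was at 769 CPM in Ctrl against 1026 CPM in CL, with a log2 ratio of 0.41 [0.34, 0.49]. Tpm2, a tropomyosin of the thin filament, was at 2514 and 2990 CPM (0.25 [0.21, 0.29]). Both intervals lie above 0. Actg2, the enteric smooth muscle actin, was at 339 and 297 CPM (-0.19 [-0.32, -0.06]), on the other side of 0. Mylk, the kinase that phosphorylates the light chain, was at 520 and 533 CPM, and its interval of -0.06 to 0.14 spans 0, as do those of Smtn, Lmod1, Flna and Vcl. After every cell was thinned to 2191 UMIs, Cnn1, calponin, was seen in 67.3% [62.3, 72.0] of Ctrl cells and 70.0% [64.9, 74.8] of CL cells, intervals that overlap. Across cells, the contraction list and the basement membrane list had a Spearman rho of 0.41 over 381 cells in Ctrl and 0.46 over 389 cells in CL. This is a description across cells of 1 library each, which share depth and free RNA.

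The genes of basal identity were mixed. The 18 genes of that list summed to 9204 CPM in Ctrl against 8999 CPM in CL (log2 ratio -0.03 [-0.06, -0.01], and 0.04 with TMM scaling factors). Of the 16 members counted, 11 had a ratio below 0 and 5 above it, with a median of -0.18 beside -0.09 over all genes. At least 2-fold lower was 1 member, beside 1.32% of all genes. That gene was Krt15, a keratin of basal cells in stratified epithelia and of hair follicle stem cells, with 1314 UMIs and 360 CPM in Ctrl against 320 UMIs and 121 CPM in CL. Its log2 ratio was -1.57 [-1.75, -1.39], and -1.73 without the cell that held most of its UMIs in each library. At equal depth Krt15 was seen in 21.8% [17.7, 26.3] of Ctrl cells and 8.00% [5.38, 11.4] of CL cells, against 2.54 and 2.81% of luminal cells. Both the level and the share of cells were lower in CL. Trp63 had a log2 ratio of -0.67 [-0.97, -0.37] in CPM, and after thinning it was seen in 11.7% [8.63, 15.4] and 10.3% [7.31, 14] of cells, a difference not detectable at this depth. Snai2 stood at 91.5 CPM in Ctrl against 66.6 CPM in CL (-0.46 [-0.73, -0.19]), and Sox10, a transcription factor of neural crest and mammary epithelium, at 67.7 and 51.1 CPM (-0.41 [-0.72, -0.10]). Lgals7, galectin 7, stood at 1144 and 760 CPM (-0.59 [-0.67, -0.51]) and was seen in 73.9% [69.2, 78.3] and 54.3% [48.9, 59.6] of thinned cells, against 14.7 and 16.8% of luminal cells. Vim, the intermediate filament vimentin, went the other way with 657 and 966 CPM (0.56 [0.47, 0.64]), and Mme, the surface peptidase CD10, with 237 and 312 CPM (0.39 [0.26, 0.53]). Oxtr stood at 108 and 93.9 CPM, with an interval of -0.44 to 0.02.

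Attachment to the basement membrane was nearly level. The 12 genes of the hemidesmosome list, the integrins and plaque proteins that anchor basal cells together with laminin 332, summed to 2415 CPM in Ctrl against 2340 CPM in CL (log2 ratio -0.05 [-0.09, 0.00], and 0.03 with TMM scaling factors). None of the 12 was past 2-fold, which is near the background of 0.894% higher and 1.32% lower. Itga6 was at 406 and 398 CPM, and Itgb1 at 455 and 449 CPM. Col17a1, the transmembrane collagen of the hemidesmosome, was at 248 and 183 CPM (-0.44 [-0.60, -0.28]).

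The genes that build the basement membrane were lower in CL. The 14 genes summed to 2804 CPM in Ctrl against 2183 CPM in CL, a log2 ratio of -0.36 [-0.41, -0.31], and 12 of the 13 members counted had a ratio below 0, with a median of -0.42 beside -0.09 over all genes. Col4a1 and Col4a2, which form the main type IV collagen network, were at 382 and 314 CPM in Ctrl and at 259 and 212 CPM in CL, with log2 ratios of -0.56 [-0.70, -0.43] and -0.57 [-0.72, -0.42]. Lamc1, the laminin gamma 1 chain, was at 130 and 96.9 CPM (-0.42 [-0.65, -0.20]), and Sparc, which binds collagen, at 1548 and 1254 CPM (-0.30 [-0.37, -0.24]). Frem2 was the 1 member of 13 past 2-fold, beside 1.32% of all genes that were at least 2-fold lower, with 51 UMIs in Ctrl and 16 in CL (-1.21 [-2.12, -0.37]). The same list had a log2 ratio of -0.24 [-0.27, -0.21] in luminal cells, of -0.40 [-0.44, -0.36] in fibroblasts and of -0.59 [-0.66, -0.51] in empty droplets, barcodes of 100 to 300 UMIs that carry free RNA. In mural cells it was -0.08 [-0.24, 0.08], an interval that spans 0. Luminal cells, fibroblasts and empty droplets thus had the same direction as basal cells, and the part of free RNA in the basal ratio was not tested.

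The 17 genes of the other matrix list summed to 4634 CPM in Ctrl against 4284 CPM in CL (-0.11 [-0.15, -0.08]), and 3 of 14 members counted were at least 2-fold lower, against 1.32% of all genes. These were Fbln2, fibulin 2, with 107 and 50.7 CPM (-1.07 [-1.37, -0.79]), and the type V collagen genes Col5a1, with 26.3 and 11.7 CPM (-1.16 [-1.80, -0.57]), and Col5a2, with 78.4 and 36.3 CPM (-1.11 [-1.46, -0.77]). In luminal cells Col5a1 was at 1.10 and 0.442 CPM, and in fibroblasts, which express it more highly, at 358 and 296 CPM. Thbs1, the matricellular protein thrombospondin 1, had more UMIs than any other gene of the list and was at 2096 and 2152 CPM (0.04 [-0.01, 0.09]). Thbs2, below the 50 UMIs needed to be counted, had 24 UMIs in Ctrl, 18 of them in 1 cell, and 0 in CL. With most of its UMIs in 1 cell no ratio is given.

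Fibroblast markers moved with these matrix genes. The 7 markers summed to 407 CPM in Ctrl against 168 CPM in CL (-1.28 [-1.44, -1.12]), and the 4 counted, Col1a1, Col1a2, Col3a1 and Dcn, were all at least 2-fold lower in CL, beside 1.32% of all genes. In 4 Ctrl cells the markers reached 0.2% of UMIs, and these 4 held 446 of the 1485 marker UMIs, while 0 of 389 CL cells reached it, and 3 counts of that total, the limit taken for a count of 0, are 0.771%. Of the 4 Ctrl cells, 2 were among the 6% of cells with the highest Scrublet score for doublets, beside 7 of 381 basal cells of Ctrl. Without these 4 cells the ratio was -0.78 [-0.94, -0.62]. Dpt and Lum had 12 and 18 UMIs in Ctrl and 0 and 2 in CL. In fibroblasts the list was at 42940 and 30150 CPM, and in empty droplets at 629 and 318 CPM, with log2 ratios of -0.51 and -0.98. Leaving out the 4 Ctrl cells was a setting chosen after seeing the data. It gave log2 ratios of -0.35 for the basement membrane list and -0.1 for the other matrix list. Over all basal cells these were -0.36 and -0.11. The part of fibroblast RNA in the matrix ratios was not tested.

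**Figure D3:**
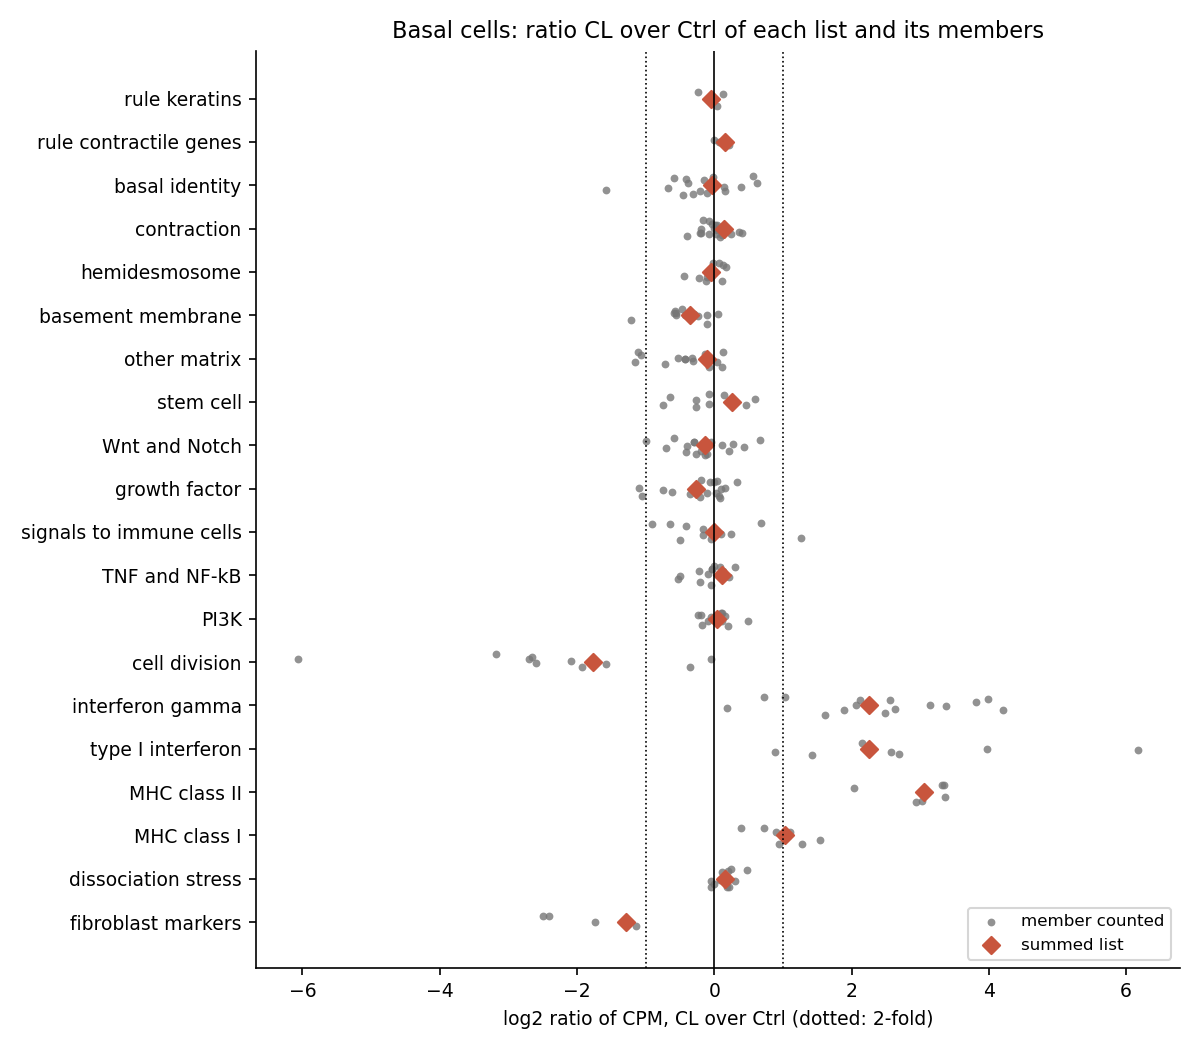
Log2 ratio of CPM, CL over Ctrl, in basal cells for each of 20 gene lists (vertical axis), with a grey point for each member counted, a red diamond for the summed list and dotted lines at 2-fold. The sums of contraction, hemidesmosome and PI3K lie between -0.05 and 0.14, those of the 4 interferon and antigen presentation lists between 1.03 and 3.06, and that of cell division at -1.77.

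Genes reported to mark stem cells of the basal layer were sparse. Of the 15 listed, 9 reached 50 UMIs, with a median log2 ratio of -0.08, and none was past 2-fold, near the background of 0.894% and 1.32%. The sum was 909 CPM in Ctrl against 1090 CPM in CL (0.26 [0.19, 0.33]), opposite in sign to that median, while Sox9, a transcription factor of progenitor cells that luminal cells express too, held 1480 of the 3317 UMIs in Ctrl and 1627 of the 2879 in CL. Sox9 itself was at 406 and 616 CPM (0.60 [0.50, 0.71]). Procr, the protein C receptor, had 25 UMIs in 18 cells of Ctrl and 14 UMIs in 10 cells of CL, with an interval of -1.43 to 0.63 for the log2 ratio. At equal depth it was seen in 2.13% [0.923, 4.15] and 1.14% [0.312, 2.90] of basal cells, against 0.274 and 0.479% of luminal cells, and no difference was detectable at this depth. Bcl11b, a transcription factor of quiescent basal cells, had 53 and 32 UMIs and was seen in 2.93% [1.47, 5.17] and 3.71% [1.99, 6.27] of thinned cells. Lgr5, a receptor for R-spondins, was seen in 6.91% [4.57, 9.97] and 4.00% [2.20, 6.62]. Axin2, a target of Wnt signalling, had 44 UMIs in Ctrl and 19 in CL (-0.75 [-1.60, 0.06]). For these 4 genes the intervals of the log2 ratio span 0.

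Wnt and Notch genes were slightly lower as a list, at 1151 CPM in Ctrl against 1046 CPM in CL (-0.14 [-0.21, -0.07], and -0.06 with TMM scaling factors). Without TMM factors luminal cells gave the same log2 ratio of -0.14 [-0.15, -0.13]. None of the 17 members counted reached 2-fold, though Lrp5 came close to it, and the background was 0.894% higher and 1.32% lower. Of the ligands, Wnt11 was at 193 and 128 CPM (-0.59 [-0.78, -0.40]) and was seen in 30.1% [25.5, 35] and 22.6% [18.3, 27.3] of thinned cells. Wnt10a was at 95.1 and 72.3 CPM (-0.39 [-0.66, -0.14]), yet at equal depth it was seen in 17.3% [13.6, 21.5] and 17.4% [13.6, 21.8] of cells. Of the receptors, Lrp5 was at 37.0 and 18.5 CPM (-1.0 [-1.50, -0.51]) and its relative Lrp6 at 154 and 165 CPM (0.11 [-0.08, 0.29]). The secreted antagonists Sfrp1 and Dkk3 were on the other side, with log2 ratios of 0.66 [0.32, 0.99] and 0.43 [0.13, 0.72]. The Notch ligands Jag1 (144 and 131 CPM) and Jag2 (38.6 and 36 CPM) had intervals that span 0.

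Of the growth factor genes, 2 of 18 counted were at least 2-fold lower and none was as much higher, beside 1.32% and 0.894% of all genes. Igfbp3, a secreted protein that binds insulin-like growth factors, was at 520 CPM in Ctrl against 242 CPM in CL (-1.10 [-1.24, -0.97]) and was seen in 47.1% [41.9, 52.3] and 24.6% [20.2, 29.4] of thinned cells, against 0.412 and 0.411% of luminal cells. Igfbp4, of the same family, was at 47.1 and 22.7 CPM (-1.05 [-1.50, -0.62]). Fst, follistatin, which traps activins, was at 840 and 548 CPM (-0.62 [-0.71, -0.53]) and was seen in 64.9% [59.8, 69.7] and 46.0% [40.7, 51.4] of thinned cells. Other members of the family were nearer to the median of all genes, with Igfbp2 at 340 and 292 CPM (-0.22 [-0.35, -0.09]), Igfbp5 at 2074 and 1871 CPM (-0.15 [-0.20, -0.10]) and Igfbp6 at 32.3 and 40.5 CPM (0.33 [-0.07, 0.72]). Of the EGF family ligands, Hbegf was at 554 and 533 CPM (-0.06 [-0.16, 0.04]) and Nrg1 was at 240 and 240 CPM (0.00 [-0.15, 0.15]). Tgfb2 was at 43.8 and 26.1 CPM (-0.75 [-1.18, -0.33]), while Tgfb1 was at 24.9 and 25.4 CPM.

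Without thinning, when the deeper cells of Ctrl have more chance to show a gene, the shares of cells with a UMI in Ctrl and CL were 89.2 and 83.5% for Cnn1, 39.9 and 15.2% for Krt15, 40.2 and 25.2% for Trp63, 89.5 and 65.8% for Lgals7, 70.6 and 42.2% for Igfbp3 and 86.4 and 68.9% for Fst. For the rarer genes they were 4.72 and 2.57% for Procr, 11 and 7.71% for Bcl11b, 25.7 and 16.7% for Lgr5, 59.8 and 42.2% for Wnt11 and 41.2 and 34.4% for Wnt10a. The genes that are higher in CL had 13.6 and 36% for Gbp2, 3.94 and 18.3% for Iigp1, 7.09 and 25.2% for H2-Ab1, 76.6 and 81.0% for B2m and 12.9 and 17.0% for Cxcl2. The gap for Trp63 was wider without thinning than with it. Bcl11b, Wnt10a and Cnn1 changed direction, being seen in slightly more CL than Ctrl cells at 2191 UMIs and in fewer CL cells without thinning, and with cells thinned to 3611 UMIs the shares were 4.56 and 2.4% for Bcl11b, 22.2 and 24.3% for Wnt10a and 79.2 and 81.2% for Cnn1.

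**Figure D4:**
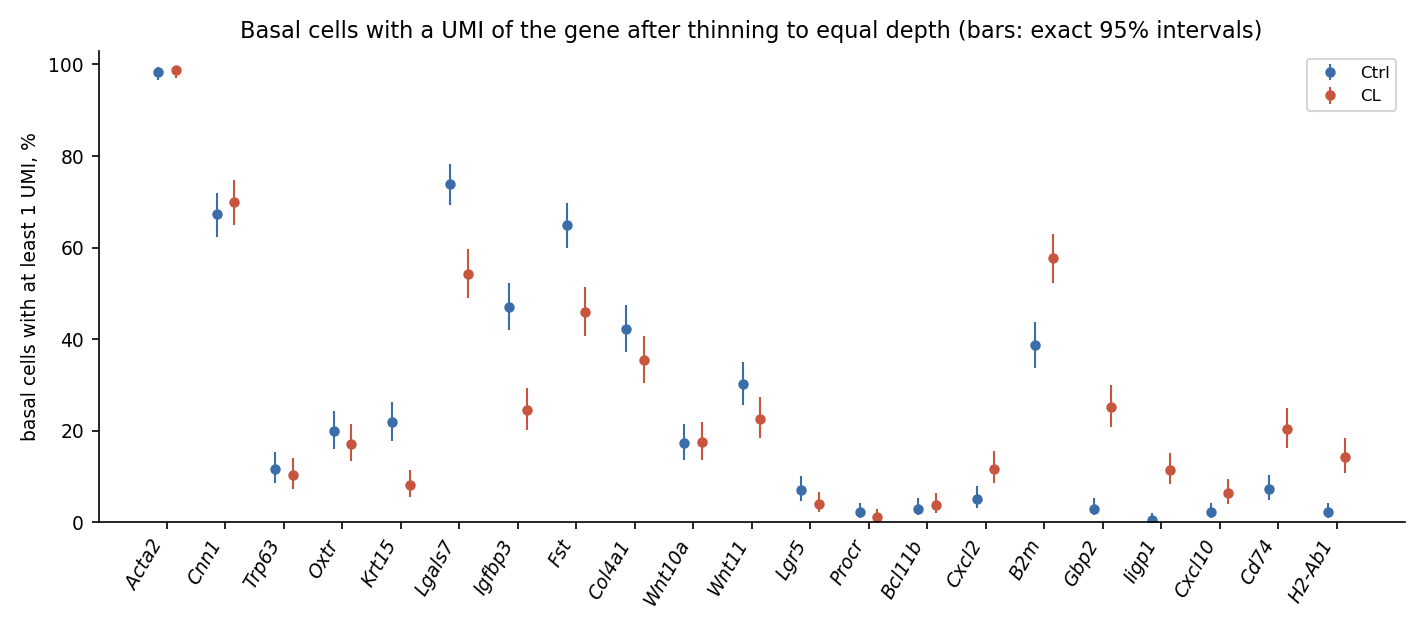
Percent of basal cells with at least 1 UMI of each gene (vertical axis) after every cell was thinned to 2191 UMIs, in 376 Ctrl cells (blue) and 350 CL cells (red), with bars for exact 95% intervals. The values of Cnn1 lie together, Krt15, Lgals7, Igfbp3 and Fst lie lower in CL, and Gbp2, Iigp1, Cd74, H2-Ab1 and B2m lie higher. Acta2 helped to choose the cells and was seen in 98.4 and 98.9% of them, so its values are a description.

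Signals from basal cells to immune cells summed to 5171 CPM in Ctrl against 5121 CPM in CL (-0.01 [-0.05, 0.02]). Cxcl14, a chemokine of resting epithelia, held most of these UMIs and was at 4159 and 4013 CPM (-0.05 [-0.09, -0.02]). Csf1, the growth factor on which macrophages depend, was at 126 and 150 CPM (0.25 [0.05, 0.45]), and Il34, which binds the same receptor, had 31 UMIs in Ctrl and 20 in CL (-0.17 [-1.05, 0.69]). The neutrophil chemokine Cxcl2 was the 1 member of 11 counted past 2-fold, beside 0.894% of all genes at least 2-fold higher. It was at 87.1 and 209 CPM (1.26 [1.06, 1.47]), and was seen in 5.05% [3.07, 7.78] and 11.7% [8.54, 15.6] of thinned cells. Luminal cells, where it was at 337 and 503 CPM, had Cxcl2 in 18.1 and 20.7% of thinned cells, above the share in basal cells. Cxcl1 was at 184 and 295 CPM (0.68 [0.53, 0.83]). Ccl2, which attracts monocytes, was at 189 and 101 CPM (-0.91 [-1.12, -0.70]), but 300 of its 690 UMIs in Ctrl lay in 1 cell, and without the top cell of each library the ratio was -0.30. Genes of TNF and NF-kB signalling (2172 and 2336 CPM, 0.11 [0.06, 0.15]) and of the PI3K pathway (612 and 629 CPM, 0.04 [-0.05, 0.13]) had no member past 2-fold among 14 and 11 counted, counts near the background of 0.894% higher and 1.32% lower. Tnfrsf1a, the main receptor for TNF, was at 117 and 123 CPM (0.08 [-0.14, 0.29]), while Tnfrsf1b had 2 UMIs in each library. Nfkbia, an inhibitor that NF-kB induces, was at 800 and 932 CPM (0.22 [0.14, 0.30]).

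Cell division transcripts were lower in CL and rested on few cells. The 15 genes summed to 1024 UMIs and 281 CPM in Ctrl against 218 UMIs and 82.5 CPM in CL, a log2 ratio of -1.77 [-1.98, -1.55], and 8 of the 10 members counted were at least 2-fold lower, against 1.32% of all genes. Mki67, the proliferation antigen Ki67, had 75 UMIs in 15 cells of Ctrl and 6 UMIs in 5 cells of CL (-3.18 [-4.67, -1.99]). Cdk1, the kinase that drives entry into mitosis, had 62 UMIs in 13 cells and 15 UMIs in 3 cells (-1.58 [-2.50, -0.75]). Its partner Ccnb1, cyclin B1, had 35 UMIs in 11 cells of Ctrl and 0 UMIs in CL, which makes it at least 8.44-fold lower against a floor of 3 UMIs over the CL cells. Cenpf, a protein of the kinetochore, had 92 UMIs in Ctrl, 54 of them in 1 cell, and 1 in CL (-6.06 [-11.38, -3.54]). The replication genes Mcm6 (80 and 56 UMIs, -0.05 [-0.57, 0.46]) and Tyms (74 and 42 UMIs, -0.35 [-0.93, 0.21]) had intervals that span 0. Cells with at least 0.1% of their UMIs from the list numbered 9 of 381 in Ctrl (2.36% [1.09, 4.44]) and 3 of 389 in CL (0.771% [0.159, 2.24]), and their intervals overlap. The 9 Ctrl cells held 802 of the 1024 UMIs, had a median of 29170 UMIs per cell against 8269 over all basal cells of that library, and none of them was above the doublet threshold. In the remaining cells the list was at 65.5 CPM in Ctrl against 56.5 CPM in CL (-0.21 [-0.53, 0.09]). The whole list was at 181 and 120 CPM in luminal cells (-0.59 [-0.63, -0.56]) and at 300.5 and 178 CPM in empty droplets (-0.75 [-0.83, -0.67]), the same direction, and the part of free RNA was not tested. Most of the UMIs behind the ratio thus came from few, deeply sequenced cells of Ctrl.

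Genes of the response to interferon gamma were higher in CL. The 20 genes of the list summed to 1291 UMIs and 354 CPM in Ctrl against 4450 UMIs and 1685 CPM in CL, a log2 ratio of 2.25 [2.16, 2.34]. Of the 15 counted, 13 were at least 2-fold higher, against 0.894% of all genes, and their median was 2.49. The promoters of 4 of these genes are shown because they hold the letters through which interferon is known to act, the interferon-stimulated response element and the gamma-activated site. The sequences are the 250 bases before the start as given by RefSeq on GRCm38.p6, read 5′ to 3′ on the strand of the gene, with the matched letters in capitals. The motifs searched on both strands were GAAANNGAA, the core of the response element, and TTCNNNGAA, the gamma-activated site, and all matches are in capitals. Gbp2 lies at chr3:142620413-142620662 on the + strand with GAAANNGAA, read on the opposite strand, 58 to 50 bases before the start, Cxcl10 at chr5:92348890-92349139 on the - strand with it 213 to 205 bases before the start, Igtp at chr11:58199306-58199555 on the + strand with the gamma-activated site at 45 to 37 and the response element at 34 to 26 bases before the start, and Irf1 at chr11:53769764-53770013 on the + strand with the gamma-activated site at 90 to 82 bases before the start.
Gbp2: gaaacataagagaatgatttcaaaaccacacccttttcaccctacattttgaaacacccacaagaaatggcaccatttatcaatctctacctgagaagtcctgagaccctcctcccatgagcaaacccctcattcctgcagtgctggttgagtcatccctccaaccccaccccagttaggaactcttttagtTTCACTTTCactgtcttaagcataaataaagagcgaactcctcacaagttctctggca
Cxcl10: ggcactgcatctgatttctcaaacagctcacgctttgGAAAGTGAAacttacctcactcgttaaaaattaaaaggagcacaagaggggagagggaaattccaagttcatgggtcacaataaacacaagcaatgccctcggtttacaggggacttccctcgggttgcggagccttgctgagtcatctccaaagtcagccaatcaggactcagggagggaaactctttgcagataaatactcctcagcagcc
Igtp: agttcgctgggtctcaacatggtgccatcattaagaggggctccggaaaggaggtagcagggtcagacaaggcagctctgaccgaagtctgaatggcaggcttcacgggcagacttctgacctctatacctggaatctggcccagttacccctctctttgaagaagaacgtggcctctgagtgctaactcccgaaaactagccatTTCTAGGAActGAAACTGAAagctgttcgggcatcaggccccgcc
Irf1: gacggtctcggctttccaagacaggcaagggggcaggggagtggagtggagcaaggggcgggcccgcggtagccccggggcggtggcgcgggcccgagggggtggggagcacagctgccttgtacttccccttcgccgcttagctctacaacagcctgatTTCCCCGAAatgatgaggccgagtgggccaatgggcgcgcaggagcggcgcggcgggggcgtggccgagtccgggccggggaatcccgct

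Promoters of 15 of the 20 genes were found in the RefSeq table, 17 promoters in all. Searched over the same 250 bases before the start, GAAANNGAA was in 10 of the 17 (58.8%), against 7.13% of all 32851 promoters, and TTCNNNGAA in 6 (35.3%), against 7.02%. The letters are a description, not evidence that a factor bound there. Of the 24 contractile genes of the selection and the contraction list, 19 had 22 promoters in the table, and the CArG box that serum response factor binds, searched on both strands, was in 3 of them (13.6%, those of Myl9, Srf and Vcl) against 1.47% of all promoters.

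Gbp2, a guanylate binding protein that coats intracellular vacuoles, had 133 UMIs in 52 cells of Ctrl and 1353 UMIs in 140 cells of CL, at 36.5 and 512 CPM, a log2 ratio of 3.81 [3.56, 4.08]. At equal depth it was seen in 2.93% [1.47, 5.17] of basal cells in Ctrl and 25.1% [20.7, 30.0] in CL, and in 3.77 and 22% of luminal cells. Iigp1, an immunity-related GTPase, had 22 and 295 UMIs (4.21 [3.59, 4.91]) and was seen in 0.532% [0.0645, 1.91] and 11.4% [8.29, 15.2] of thinned cells. Igtp, of the same family, was at 9.32 and 57.6 CPM (2.63 [2.08, 3.21]), and Ifi47 at 7.40 and 65.9 CPM (3.15 [2.56, 3.8]). The chemokine Cxcl10, which draws activated T cells, had 43 UMIs in 22 cells and 493 UMIs in 33 cells (3.99 [3.53, 4.47]), with 110 of the 493 in 1 cell. At equal depth it was seen in 2.13% [0.923, 4.15] and 6.29% [3.98, 9.36] of cells, against 1.78 and 2.19% of luminal cells, and without thinning in 5.77 and 8.48%. Irf1, a transcription factor that interferon induces, was at 129 and 214 CPM (0.72 [0.54, 0.90]), and Socs1, the feedback inhibitor, at 37.5 and 42.4 CPM (0.18 [-0.20, 0.55]); these were the 2 members counted that were not past 2-fold. Cxcl9 had 0 and 12 UMIs.

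Antigen presentation followed the same direction. All 6 genes of MHC class II were at least 2-fold higher in CL, beside 0.894% of all genes, and together they had 339 UMIs and 92.9 CPM in Ctrl against 2042 UMIs and 773 CPM in CL (3.06 [2.89, 3.23]). Cells with at least 0.1% of their UMIs from these genes numbered 4 in Ctrl and 56 in CL, and held 160 and 1757 of these UMIs. In the remaining cells the log2 ratio was 1.41 [1.13, 1.68]. Since the list itself made the split, this is a description. H2-Ab1, the beta chain of I-A, had 59 UMIs in 27 cells and 425 UMIs in 98 cells (3.32 [2.92, 3.73]), and was seen in 2.13% [0.923, 4.15] and 14.3% [10.8, 18.4] of thinned basal cells against 1.85 and 8.76% of luminal cells. Cd74, the invariant chain, had 158 and 876 UMIs (2.94 [2.69, 3.19]), of which 54 in Ctrl lay in 1 cell. Ciita, the master regulator of the class, had 2 and 7 UMIs. The 9 genes of MHC class I and its peptide supply were at 1929 and 3940 CPM (1.03 [0.99, 1.07]), and 5 of them were at least 2-fold higher, beside 0.894% of all genes. B2m, the light chain, was at 255 and 617 CPM (1.28 [1.16, 1.39]) and was seen in 38.6% [33.6, 43.7] and 57.7% [52.3, 62.9] of thinned cells. H2-K1 was at 726 and 1523 CPM (1.07 [1.00, 1.14]). Tap1, which carries peptides into the endoplasmic reticulum and was counted in the interferon gamma list, was at 20.0 and 84.1 CPM (2.07 [1.68, 2.47]). Counts within the H2 family and the guanylate binding proteins are uncertain where reads fit near-identical copies. The genes chosen as targets of type I interferon, many of which interferon gamma induces too, were at 77.0 and 366 CPM (2.25 [2.06, 2.45]), with 6 of 7 counted at least 2-fold higher, beside the same background of 0.894%. Isg15, an ubiquitin-like modifier, was at 13.2 and 84.8 CPM (2.69 [2.23, 3.17]), and Bst2, which tethers virions, at 27.7 and 123 CPM (2.15 [1.83, 2.49]).

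The response was uneven among basal cells. The 10% of cells with most of them held 44.8% of the interferon gamma list's UMIs in Ctrl and 64.4% in CL, and 73.5 and 80.8% of those of MHC class II. Cells with at least 0.2% of their UMIs from the interferon gamma list numbered 8 of 381 in Ctrl (2.1% [0.911, 4.10]) and 68 of 389 in CL (17.5% [13.8, 21.6]), and 24 of the 389 lay between 0.15 and 0.25%. The share is a range on a scale, and these cells are no separate type. In the 68 CL cells the list was at 5904 CPM and MHC class II at 2730 CPM, and in the other 321 cells at 567 and 255 CPM. In the 8 Ctrl cells they were at 3133 and 2323 CPM and in the other 373 at 297 and 47.5 CPM, and since the list itself made the split these levels are a description. The 68 cells had a median of 7529 UMIs against 5824 in the others, and 3 of the 68 and 5 of the 321 were above the doublet threshold. Their immune markers were at 14.5 CPM against 17.7 CPM in the other CL cells, their fibroblast markers at 105 against 184 CPM and their luminal markers at 5340 against 4948 CPM, while luminal markers in Ctrl were at 3875 CPM in the 8 cells and 4263 CPM in the rest. The contraction list was at 6831 CPM in them against 11660 CPM in the other CL cells, while in Ctrl it was at 10060 CPM in the 8 cells above the mark against 9646 CPM in the rest. The genes that chose the cells, Acta2, Myh11 and Tagln, were at 7710 against 16570 CPM in CL and at 13830 against 13260 CPM in Ctrl. The contraction list had a Spearman rho of -0.27 with the interferon gamma list over the 389 CL cells and of 0.05 over the 381 Ctrl cells. Krt5, Krt14 and Krt17 were at 8805 against 11470 CPM in CL and at 11710 against 11260 CPM in Ctrl.

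The same lists were set beside the other cells of each library. In luminal cells the interferon gamma list was at 505 CPM in Ctrl against 1052 CPM in CL (1.06 [1.04, 1.08]) and in fibroblasts at 979 and 3122 CPM (1.67 [1.59, 1.75]), so that both were higher in CL as in basal cells, by a smaller ratio, a difference that was not tested. MHC class II was at 57.2 and 316 CPM in luminal cells (2.46 [2.42, 2.51]) and at 38.1 and 87.6 CPM in fibroblasts (1.20 [0.77, 1.65]). In empty droplets the interferon gamma list was at 560 and 1026 CPM and MHC class II at 417 and 836 CPM. Of the luminal markers Cited1 had the lowest level in basal cells relative to empty droplets, 3.98% in Ctrl and 4.39% in CL, and the 12 immune markers together stood at 6.59 and 4.96% of their level there. The part of free RNA in the ratios of the basal cells was not tested.

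**Figure D5:**
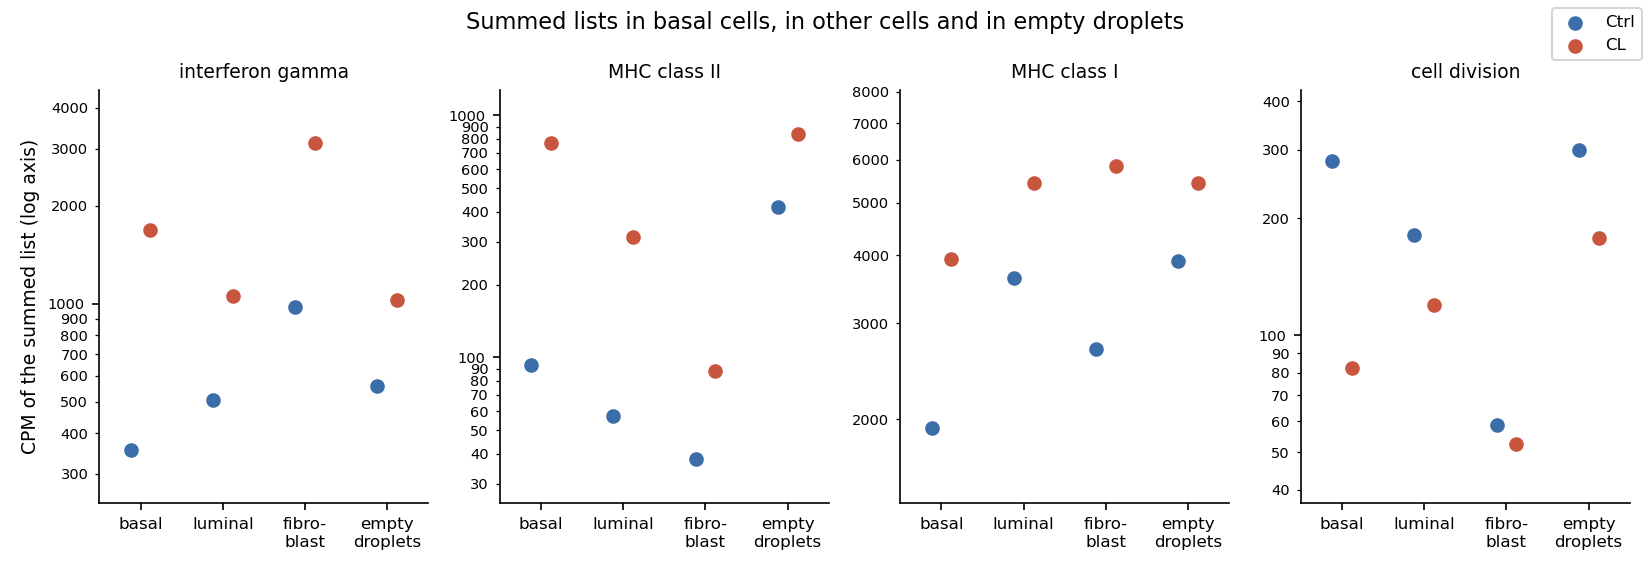
CPM of 4 summed lists (log axes) in basal cells, luminal cells, fibroblasts and empty droplets of Ctrl (blue) and CL (red). The interferon gamma list in basal cells lies at 354 CPM in Ctrl, the lowest of the 4 compartments, and at 1685 CPM in CL, above luminal cells at 1052 CPM, while cell division in basal cells lies at 281 and 82.5 CPM.

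Genes that dissociation induces were at 16620 CPM in Ctrl against 18480 CPM in CL (0.15 [0.14, 0.17]), with none of 13 past 2-fold, near the background of 0.894% and 1.32%. Fos was at 2936 and 3357 CPM (0.19 [0.15, 0.23]) and Hspa1a, a heat shock protein, at 181 and 252 CPM (0.48 [0.32, 0.63]). Luminal markers were at 4255 and 5030 CPM (0.24 [0.21, 0.27]), and of the 10 counted 4 had a ratio above 0 and 6 below it, with a median of -0.02. The sum followed Lcn2, a secreted siderophore binding protein that epithelia raise in inflammation, at 2086 and 2863 CPM (0.46 [0.41, 0.50]), while Csn3 and Aldh1a3 had log2 ratios of -0.35 and -0.80.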

How the data were processed

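Mammary gland suspensions of 1 control library and 1 library from clodronate liposome treated mice were sequenced with the 10x 3′ chemistry. The authors deposited unfiltered UMI counts, 32285 genes by 6794880 barcodes per library. The submitters' processing notes name Cell Ranger 2.1.1 and mm10, while the file headers name Cell Ranger 4. The deposited barcode lists (7217 and 10555 entries) did not index the matrix columns, so as many barcodes with most UMIs were taken, down to 615 and 648 UMIs, and cells with at least 500 genes and at most 15% mitochondrial UMIs were kept. Luminal cells had Krt8, Krt18 and Krt19 at 0.3% and above the basal keratins, mural cells had Rgs5, Notch3, Higd1b and Ndufa4l2 at 0.1%, and fibroblasts had Col1a1, Col1a2, Col3a1 and Dcn at 1% without keratin. UMIs were summed over the cells of a class per library and scaled to CPM. Levels carry exact Poisson intervals, ratios of CPM the exact conditional binomial interval and shares Clopper-Pearson intervals. The ratio of the basal shares carries the Katz interval, a normal approximation on the log scale. All are at 95% and for counting error only. Genes with at least 50 UMIs over both libraries were counted, and called at a ratio of 2. The groups were compared by values and intervals alone. For shares of cells with a UMI, cells were thinned to the 10th percentile of the shallower library, 2191 UMIs, leaving out 5 Ctrl and 39 CL cells, and 1500 luminal cells per library, drawn at random, served as their comparison. Doublets were kept, since the selection has no doublet step, and the 6% of cells with the highest Scrublet score held 7 and 8 basal cells (1.84 and 2.06%). Any listed gene could be named, as well as the 10 highest and 10 lowest ratios among genes with at least 100 UMIs and the 10 highest ratios of basal over luminal cells. All these rankings left out genes of mitochondria, ribosomes and haemoglobin, some sex-linked genes and genes without a proper symbol. The ranking of basal over luminal cells also left out the genes of the selection. The members and the 26 lists were chosen with earlier results of these data known. Of the type I interferon list, Mx1 was not analysed here. 1 gene of the rankings is not reported here by name. Gene identifiers were matched to GENCODE M21 (32158 of 32285), and promoters come from RefSeq. The ratio and call steps were tested on simulated data. Python 3.11.15, numpy 2.4.6, scipy 1.17.1, scanpy 1.11.5, R 4.3.3 and edgeR 4.0.16, the latter for TMM factors on the deposited counts, were used.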

Additional observations from a re-analysis of the deposited data

Results flagged for a closer look

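In 2 of 17 gene lists compared, which leave out the genes of the selection and the markers of other cells, the ratio CL over Ctrl lay on opposite sides of 0 in basal and in luminal cells of the same libraries with both counting intervals clear of 0, a difference between cell types that was not tested. The basal identity list had a log2 ratio of -0.03 in basal cells and 0.04 in luminal cells, and with TMM factors the value in basal cells was 0.04. The dissociation stress list had a log2 ratio of 0.15 in basal cells and -0.02 in luminal cells.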

How the results depend on the processing

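Over 16 other settings, 265 values of 44 results were recomputed. Of these, 198 were taken as kept and 67 as moved, and 0 values past 2-fold changed sign. For list ratios and shares the limit was the counting interval. The numbers of genes past 2-fold were not held to that interval. For them, 83 genes lower in CL with TMM factors and 140 with CPM averaged per cell were taken as kept, beside 108. Smaller values changed sign in 13 cases of 8 results. Among them, shares of cells with a UMI, as log2 ratios, went from 0.34 to -0.93 for Bcl11b and from 0.52 to -0.36 for Tspan8 with thinning to 3611 UMIs. Without thinning they were -0.52 and -0.65, and went from 0.01 to -0.26 for Wnt10a and from 0.06 to -0.10 for Cnn1. The PI3K list went from 0.04 to -0.01 and -0.03 with the stricter mitochondrial and keratin limits. Signals to immune cells went from -0.01 to 0.01 without high Scrublet scores or fibroblast markers and to 0.06 with TMM, with which basal identity and hemidesmosome stood at 0.04 and 0.03. The basal share kept a log2 ratio between -0.72 and -0.52. With mitochondrial UMIs at most 5% the log2 ratio of contraction was 0.07, of basement membrane -0.42, of the interferon gamma list 2.42 and of MHC class II 3.25. With the keratin threshold at 0.6% interferon gamma was 2.05 and MHC class II 2.86, and with the contractile threshold at 0.2% contraction was 0.19, interferon gamma 2.07 and MHC class II 2.8. With TMM factors, which moved the median of all genes from -0.09 to -0.01, contraction was 0.22 and basement membrane -0.28. When CPM was computed per cell and averaged, contraction was 0.19, basement membrane -0.43, cell division -0.66, interferon gamma 1.97 and MHC class II 2.53. Without the 10% of cells highest for the list they were 0.12, -0.41, -0.09, 1.78 and 2.59, by construction the cells that carry the list. Without the top cell for the list, a setting chosen after seeing the data, MHC class II was 3.55. At a minimum of 200 UMIs, which leaves 3923 genes, 26 genes were at least 2-fold higher and 9 lower, and with at least 1 UMI in each library (13927 genes) 782 and 1013, as more genes of few UMIs enter. The cause of the other shifts was not tested. With 1 library per group no replicate could be left out, and no paired analysis was possible because each group holds 1 sample. Depth limits genes of few UMIs, among them Procr and Ciita.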
